A study of Mus musculus with 8 samples.

Results

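The chromatin around 10 chemokine genes of macrophages (Ccl2, Ccl3, Ccl4, Ccl5, Ccl7, Ccl9, Cxcl1, Cxcl2, Cxcl10 and Cxcl16) was examined in bone marrow-derived macrophages (BMDMs). A peak was counted as a chemokine peak when the authors' annotation gave it to one of these genes and it lay within 100 kb of the transcription start site (TSS). By this rule, 6 of the 9698 peaks in the WT table belonged to 4 of the 10 genes, and 14 of the 24867 peaks in the NCoR f/f table belonged to 7 of them. ATAC-seq, in which a transposase cuts and tags open DNA, had been done on 8 libraries, 2 for each of 4 groups. WT BMDMs carried no modified allele by the labels and received vehicle (Veh) or Kdo2 lipid A (KLA), a TLR4 agonist, for 6 h. Another pair of WT libraries received KLA with RGFP966, an inhibitor of the histone deacetylase HDAC3, by their titles, while the treatment entry of these libraries names only KLA. The last pair came from NCoR1 flox/flox BMDMs (NCoR f/f) at Veh for 6 h, with the floxed allele of the corepressor NCoR1 and with no Cre named in the labels. No source used here says whether the 2 libraries of a group came from separate mice or cultures, so p-values measure the spread between these libraries, which may be technical.

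Chemokines are small secreted proteins that draw leukocytes along a gradient, and macrophages release many of them when TLR4 senses lipopolysaccharide. The CC ligands Ccl2 and Ccl7 attract monocytes through CCR2, whereas Ccl3, Ccl5 and Ccl9 act through CCR1, and Ccl4 is a close relative of Ccl3. Of the CXC ligands, Cxcl1 and Cxcl2 attract neutrophils through CXCR2, Cxcl10 is an interferon-inducible ligand of CXCR3, and Cxcl16 is a membrane-bound ligand of CXCR6. The genes sit in clusters, and their enhancers and promoters are known targets of NFkB, AP-1 and IRF factors.

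In mm10, the genes lie in 3 stretches of chromosome 11 and 2 of chromosome 5. Ccl2 (82035571-82037453) and Ccl7 (82045712-82047525) are neighbours on the plus strand of chromosome 11. Farther along are Ccl5 (83525778-83530518), Ccl9 (83572919-83578636) and Ccl3 (83647844-83649355) on the minus strand and Ccl4 (83662584-83664683) on the plus strand, and Cxcl16 (70453983-70459984, minus strand) lies apart from both clusters. On chromosome 5, Cxcl1 (90891241-90893115) and Cxcl2 (90903871-90905938) are neighbours on the plus strand, and Cxcl10 (92346638-92348889) is on the minus strand. Sequences at 3 CXC genes and 2 CC genes are shown here because the peaks they come from carry the results below or hold matches to these factors' motifs. Each is read from the RefSeq GRCm38.p6 (mm10) genome, 5′ to 3′ on the strand of its gene, from the 300 bases at the centre of a peak and without any base past the TSS. Capitals mark matches on either strand to NFkB-p65, AP-1 (TGANTCA), PU.1 (GAGGAA), C/EBP (TTGCNNAA) and IRF.

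Cxcl2 promoter (chr5:90903526-90903825, plus strand): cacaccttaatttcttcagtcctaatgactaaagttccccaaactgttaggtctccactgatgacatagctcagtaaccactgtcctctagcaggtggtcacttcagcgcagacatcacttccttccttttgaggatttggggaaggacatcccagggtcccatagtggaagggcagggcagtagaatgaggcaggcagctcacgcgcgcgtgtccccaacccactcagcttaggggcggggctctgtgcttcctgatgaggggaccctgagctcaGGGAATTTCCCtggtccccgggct
Cxcl10 promoter (chr5:92348890-92349141, minus strand): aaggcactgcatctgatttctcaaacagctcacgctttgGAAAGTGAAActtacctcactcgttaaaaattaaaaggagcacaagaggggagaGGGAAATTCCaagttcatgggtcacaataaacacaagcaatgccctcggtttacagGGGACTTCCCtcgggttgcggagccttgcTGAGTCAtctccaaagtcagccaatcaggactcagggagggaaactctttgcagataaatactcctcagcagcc
Cxcl1 upstream peak (chr5:90881709-90882008, plus strand): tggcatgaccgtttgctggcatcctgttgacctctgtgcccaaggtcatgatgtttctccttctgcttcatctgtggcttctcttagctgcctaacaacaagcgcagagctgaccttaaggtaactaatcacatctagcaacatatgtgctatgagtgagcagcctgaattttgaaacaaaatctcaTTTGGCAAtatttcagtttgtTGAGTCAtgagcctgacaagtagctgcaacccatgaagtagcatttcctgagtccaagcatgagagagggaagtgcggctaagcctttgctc
Ccl3 promoter (chr11:83649379-83649678, minus strand): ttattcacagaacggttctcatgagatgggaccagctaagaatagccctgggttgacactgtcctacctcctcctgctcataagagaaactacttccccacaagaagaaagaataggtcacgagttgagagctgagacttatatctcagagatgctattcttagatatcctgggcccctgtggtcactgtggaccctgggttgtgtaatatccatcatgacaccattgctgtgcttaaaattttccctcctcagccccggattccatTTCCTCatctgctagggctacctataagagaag
Ccl2 upstream peak, 28362 bp from the TSS (chr11:82007066-82007365, plus strand): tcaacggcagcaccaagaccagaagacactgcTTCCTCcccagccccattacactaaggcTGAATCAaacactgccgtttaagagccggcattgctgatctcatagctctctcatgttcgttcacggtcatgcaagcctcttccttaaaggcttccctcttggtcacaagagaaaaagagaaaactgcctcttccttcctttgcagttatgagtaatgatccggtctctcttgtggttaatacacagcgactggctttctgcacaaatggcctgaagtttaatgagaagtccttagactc

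The Cxcl2 promoter run held a pair of NFkB-p65 matches that overlap, GGGAATTTCC and GGAATTTCCC, at bases 277 to 286 and 278 to 287. The run is wider than the peak, and both matches reach past the end of the NCoR f/f peak and lie outside the WT peak. The Cxcl10 promoter run held 2 separate NFkB-p65 matches (GGGAAATTCC and GGGACTTCCC), 1 AP-1 match (TGAGTCA) and 1 IRF match (GAAAGTGAAA). Among the 12 NCoR f/f chemokine peaks whose sequence was read, 4 had an NFkB-p65 match in the central 300 bases, compared with 6.35% of all 24620 peaks read in that table. These 4 were at the Cxcl2 and Cxcl10 promoter peaks, the peak 4921 bp upstream of Cxcl10 and the peak 8104 bp upstream of Cxcl16. AP-1 matches were in 5 of the 12 (18.6% of all peaks), C/EBP matches in 5 (13.6%), PU.1 matches in 3 (40.5%) and an IRF match in 1 (3.79%). Of the 5 WT chemokine peaks read, none held an NFkB-p65 match in its central 300 bases (6.55% of all 9527 peaks read in that table) or an IRF match (3.79%), 2 held AP-1 (21.1%), 3 PU.1 (39.4%) and 1 C/EBP (14.5%). The WT peak at the Cxcl2 promoter was centred farther upstream than its NCoR f/f counterpart. RefSeq promoter entries were at hand for 5 of the 10 genes (Ccl3, Ccl9, Cxcl1, Cxcl2 and Cxcl10), and no sequence was read at the promoters of Ccl2 and Ccl4. A match is a description of the letters, not a measured binding site.

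**Figure D1:**
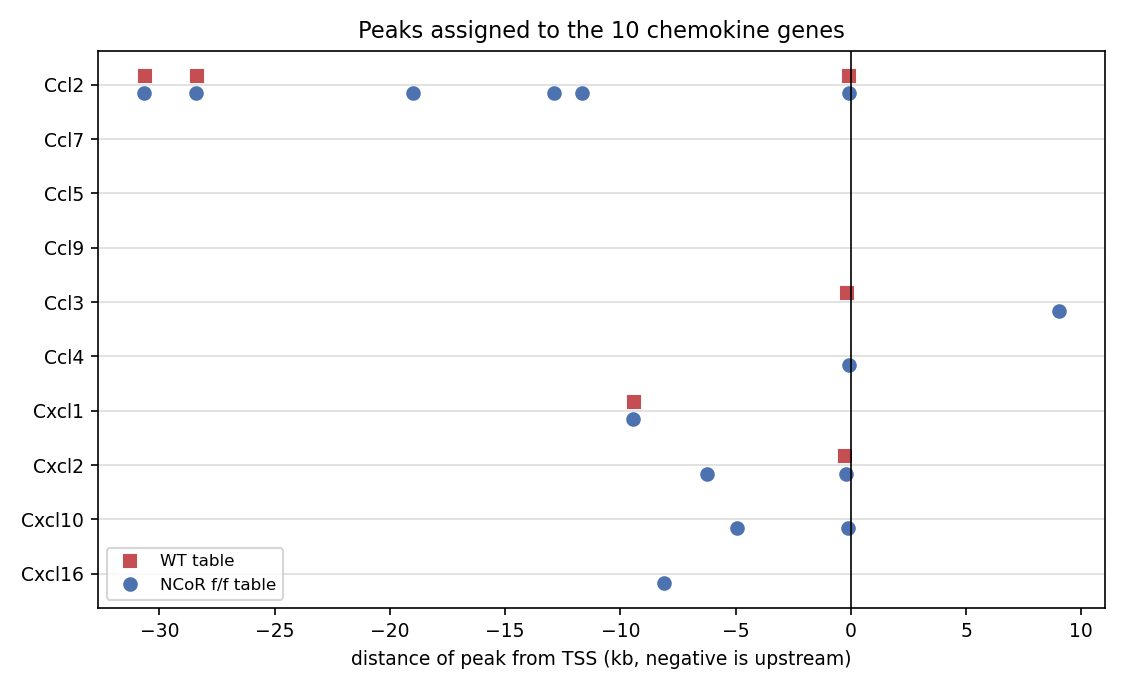
Distance of each chemokine peak from the TSS of its gene (x axis, kb, negative is upstream) for the 10 genes (rows), with squares for the 6 peaks of the WT table and circles for the 14 of the NCoR f/f table. Ccl2 has 3 and 6 peaks, and the rows of Ccl7, Ccl5 and Ccl9 are empty.

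The chemokine peaks were unevenly spread over the genes. Ccl2 had 3 peaks in the WT table, at 30620, 28362 and 86 bp upstream of its TSS, and 6 in the NCoR f/f table, at 30656, 28421, 18980, 12869, 11655 and 71 bp upstream. Ccl3, Cxcl1 and Cxcl2 had 1 peak each in the WT table, at 150, 9387 and 268 bp upstream. In the NCoR f/f table Cxcl2 had 2 peaks (6258 and 224 bp upstream), Cxcl10 had 2 (4921 and 102 bp upstream), and Ccl3 (9034 bp downstream), Ccl4 (98 bp upstream), Cxcl1 (9469 bp upstream) and Cxcl16 (8104 bp upstream) had 1 each. Ccl5, Ccl7 and Ccl9 had no peak assigned to them in the tables used here. Since each peak goes to the gene with the nearest TSS, the nearest peak to the Ccl7 TSS, 10221 bp away in the WT table, is the Ccl2 promoter peak. The nearest peak to Ccl5 in the WT table was the promoter peak of Taf15, 57485 bp away. The peak 4921 bp upstream of Cxcl10 lies in an intron of another gene, and the remaining distal chemokine peaks are intergenic. Of the 6 WT chemokine peaks, 5 overlapped a chemokine peak of the NCoR f/f table, by 208 to 319 bp, and the Ccl3 promoter peak overlapped none.

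The libraries were shallow in peaks, which limits what single peaks can show. The 6 WT libraries held 116733 to 202523 tags in peaks, 1.40% to 2.06% of all their tags, and the NCoR f/f libraries 372367 and 509741 (2.37% and 2.73%). A peak with 4 tags has an exact 95% Poisson interval of 1.09 to 10.2 tags and one with 31 tags an interval of 21.1 to 44.0, for counting error only. The macrophage marker Cd68 had a promoter peak in both tables, and none of the B cell, neutrophil or fibroblast markers had a promoter peak. Among T cell markers only Tcf7 had one, in the NCoR f/f table, and among dendritic cell markers only Zbtb46, in both. The 2 libraries of a group differed by about counting noise over all peaks (a scaled squared difference of 0.946 to 1.08, where counting noise gives about 1), and libraries of different WT conditions differed more (1.41 to 2.07).

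KLA was compared with Veh in WT BMDMs to ask which chemokine peaks opened or closed after TLR4 stimulation. Of the 6 peaks, 1 changed, the Ccl2 promoter peak (chr11:82035340-82035643), and it fell. It held 31 and 29 tags at Veh, 20 and 7 with KLA, and 16 and 21 with RGFP966 + KLA. Per 100000 tags in peaks these were 24.04 and 23.9 at Veh, 10.7 and 6.00 with KLA, and 7.90 and 10.8 with RGFP966 + KLA. Both Veh libraries lay above all 4 libraries with KLA. How many of all peaks do so was not counted, so this order is a description and not evidence of a change. Ccl2, the monocyte attractant, had 23.99 ± 0.0669 (SD, n = 2) at Veh and 8.35 ± 3.32 (SD, n = 2) with KLA at its promoter, a log2 fold change of -1.43 ± 0.33 (SE) and an adjusted p of 0.00496 by edgeR's quasi-likelihood test with Benjamini-Hochberg adjustment over 9698 peaks. Over all peaks, 5.03% (488) were called in this comparison at an adjusted p under 0.05 and over 2-fold, and the 1 of 6 is read against that share. The call was lost without KLA replicate 2 (log2 fold change -1.16, adjusted p = 0.0527) and under DESeq2 with its own size factors (adjusted p = 0.553) or with those from total tags in peaks (0.528), which called 0 of all peaks while 570 and 588 of them had an unadjusted p under 0.05.

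The other 5 WT peaks did not pass the test for KLA against Veh. The Cxcl2 promoter peak (chr5:90903511-90903751), at the gene of a neutrophil attractant, held 5 and 4 tags at Veh, 22 and 5 with KLA and 17 and 25 with RGFP966 + KLA. The KLA libraries were far apart here, 11.8 and 4.28 tags per 100000, and the second of them was close to the Veh libraries (3.88 and 3.30). The log2 fold change was 1.29 ± 0.53 (SE), with an adjusted p of 0.155 by edgeR, and it was 0.25 without KLA replicate 1. The peak upstream of Cxcl1 (chr5:90881690-90882027), the neighbour of Cxcl2, held 5 and 8 tags at Veh, 13 and 11 with KLA and 10 and 7 with RGFP966 + KLA. Its KLA libraries had 6.95 and 9.42 tags per 100000 and its Veh libraries 3.88 and 6.61. The log2 fold change was 0.60 ± 0.47 (SE), with an adjusted p of 0.533 by edgeR. The authors' irreproducible discovery rate (IDR) sets, the reproducible peaks of each condition, held the Cxcl1 peak in the KLA set alone and the Cxcl2 peak in the RGFP966 + KLA set alone. Both peaks therefore entered the table through a condition with KLA, and their direction is no independent evidence.

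At the Ccl3 promoter peak (chr11:83649340-83649716), tags were 12 and 15 at Veh, 19 and 19 with KLA and 15 and 19 with RGFP966 + KLA. The groups overlapped per 100000 tags, 9.31 and 12.4 at Veh against 10.2 and 16.3 with KLA (log2 fold change 0.21 ± 0.36 SE, adjusted p = 0.819 by edgeR). The peak 28362 bp upstream of Ccl2 (chr11:82007056-82007374) had 13.2 and 14.9 tags per 100000 at Veh and 12.8 and 12.8 with KLA. That difference, -0.12 ± 0.34 (SE) on the log2 scale, has a 95% interval of -0.80 to 0.55 and an adjusted p of 0.901 by edgeR. The estimate at the Ccl2 promoter, -1.43, lies outside this interval, but the promoter's own interval, -2.07 to -0.79, meets it. Whether the 2 peaks differ in their change was not tested. The peak 30620 bp upstream of Ccl2 (chr11:82004772-82005142) had 13.96 and 10.7 tags per 100000 at Veh and 8.02 and 8.57 with KLA, a log2 fold change of -0.59 ± 0.38 (SE) with an adjusted p of 0.416 by edgeR.

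**Figure D2:**
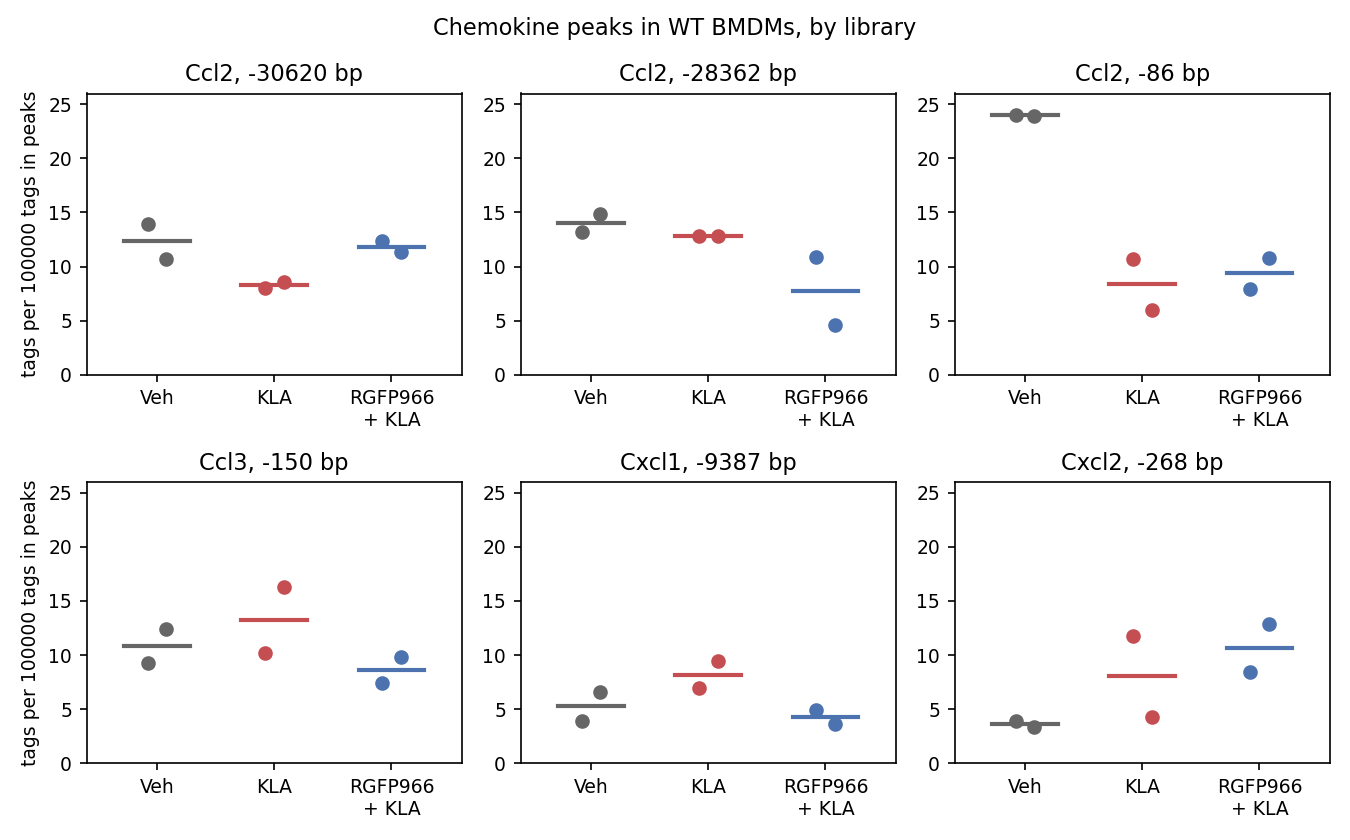
Tags per 100000 tags in peaks (y axis) at the 6 chemokine peaks of WT BMDMs, 1 panel per peak, for Veh, KLA and RGFP966 + KLA. Points are the 2 libraries of a condition and bars their mean. The Ccl2 promoter peak (-86 bp) is at 24.04 and 23.9 at Veh and at 10.8 or lower in the other 4 libraries, and the KLA libraries of the Cxcl2 peak stand apart from each other at 11.8 and 4.28.

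RGFP966 + KLA was compared with KLA to ask whether blocking HDAC3 altered the chemokine peaks during stimulation. None of the 6 peaks was called, against 0.340% (33) of all peaks. By edgeR, 1 of the 6 had an unadjusted p under 0.05, against 13.8% (1343) of all peaks, so this count is near the background. It was the peak 28362 bp upstream of Ccl2, which had 10.9 and 4.63 tags per 100000 with RGFP966 + KLA and 12.8 in each KLA library (log2 fold change -0.71 ± 0.35 SE, adjusted p = 0.356 by edgeR). DESeq2 called 0 of the 6 and 0 of all peaks, so its result says nothing about the chemokine peaks. The Ccl2 promoter peak differed by 0.07 ± 0.37 (SE) on the log2 scale, with a 95% interval of -0.65 to 0.79, and the Cxcl2 promoter peak by 0.25 ± 0.36 (SE), with an interval of -0.46 to 0.96. The Cxcl1 peak had 4.94 and 3.60 tags per 100000 with RGFP966 + KLA (log2 fold change -0.87 ± 0.43 SE, adjusted p = 0.361 by edgeR). It is in the table only through the KLA IDR set, and the peak 28362 bp upstream of Ccl2 only through the Veh and KLA sets. Their lower values with RGFP966 + KLA are therefore not independent of how the peaks were chosen. The Ccl3 promoter peak was at 7.41 and 9.78 (log2 fold change -0.54 ± 0.34 SE, adjusted p = 0.474 by edgeR). The peak 30620 bp upstream of Ccl2 was at 12.3 and 11.3 (log2 fold change 0.52 ± 0.34 SE, adjusted p = 0.501 by edgeR).

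RGFP966 + KLA was also set against Veh, a comparison that shares the Veh libraries with KLA against Veh. Here 2 of 6 peaks were called, against 9.88% (958) of all peaks, and they moved in opposite directions. The Ccl2 promoter peak fell to 9.36 ± 2.06 (SD, n = 2) tags per 100000, a log2 fold change of -1.36 ± 0.30 (SE) with an adjusted p of 0.0023 by edgeR. The Cxcl2 promoter peak rose from 3.59 ± 0.406 (SD, n = 2) at Veh to 10.6 ± 3.17 (SD, n = 2), with 8.39 and 12.9 in the single libraries, a log2 fold change of 1.54 ± 0.49 (SE) with an adjusted p of 0.0334 by edgeR. This peak is in the table only through the RGFP966 + KLA IDR set, the group in which it was high, so the call and the count of 2 of 6 are not independent of that choice. The Ccl2 call was lost without RGFP966 + KLA replicate 1 (-1.14, adjusted p = 0.0614). The Cxcl2 call was lost without Veh replicate 1 (1.66, adjusted p = 0.132), Veh replicate 2 (1.43, 0.153) or RGFP966 + KLA replicate 2 (1.20, 0.254), and with loess offsets (1.45, 0.0615). DESeq2 with its own size factors gave an adjusted p of 0.457 for the Ccl2 peak and 0.65 for the Cxcl2 peak. The other 4 peaks were not called, with adjusted p-values of 0.133 to 0.928 by edgeR. Their log2 fold changes were -0.84 (28362 bp upstream of Ccl2), -0.33 (Ccl3), -0.27 (Cxcl1) and -0.07 (30620 bp upstream of Ccl2). The peak 28362 bp upstream of Ccl2 is in the Veh IDR set and not in the RGFP966 + KLA set, so its direction is not independent of that choice.

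**Figure D3:**
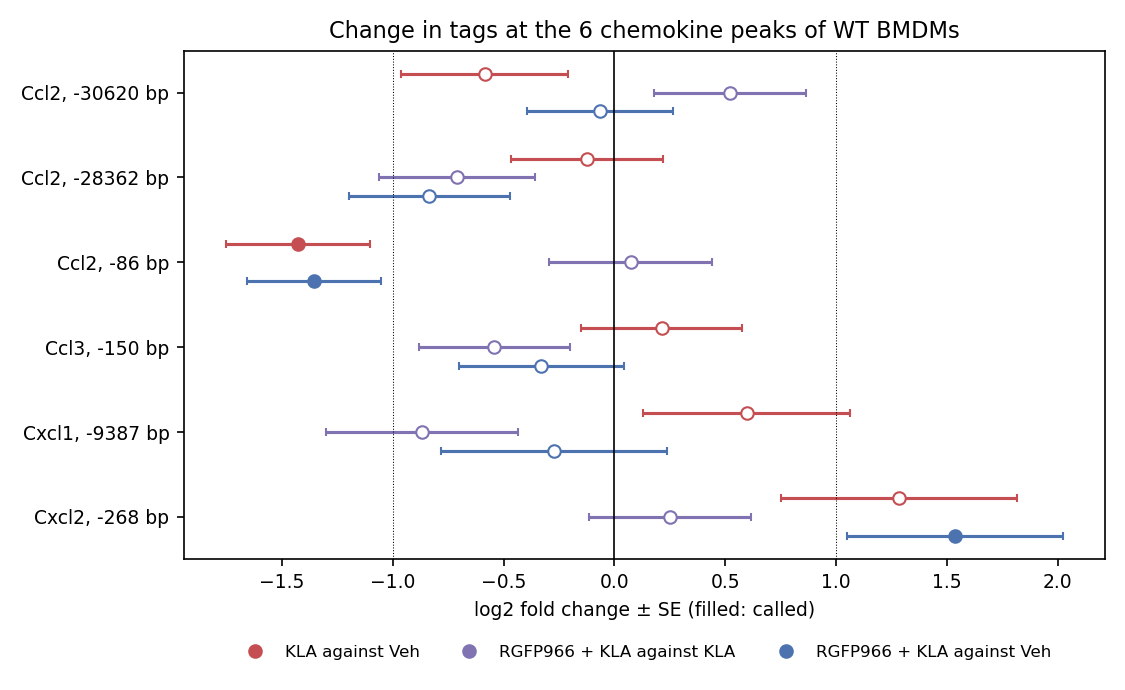
Log2 fold change (x axis) with its SE (bars) at the 6 chemokine peaks of WT BMDMs in the 3 comparisons, from edgeR. Filled points are called, and dotted lines mark a 2-fold change. The Ccl2 promoter peak (-86 bp) is at -1.43 and -1.36 against Veh and 0.07 against KLA, and the Cxcl2 peak at 1.29, 1.54 and 0.25.

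Tags were also summed per gene for the 4 genes with a WT peak, with 6598 genes tested. The sums of Ccl3, Cxcl1 and Cxcl2 are each 1 peak and repeat the peak tests. The Ccl2 sum includes the called promoter peak, so none of these is a separate line of evidence. Ccl2, with its 3 peaks together, had 66 and 60 tags at Veh, 59 and 32 with KLA and 63 and 52 with RGFP966 + KLA. Per 100000 tags in peaks this was 51.2 and 49.5 at Veh, 31.5 and 27.4 with KLA and 31.1 and 26.8 with RGFP966 + KLA. For KLA against Veh, 1 of the 4 genes was called at an adjusted p under 0.05 by edgeR, against 4.30% (284) of all genes. This was Ccl2, which fell by 0.75 ± 0.21 (SE) on the log2 scale (adjusted p = 0.0166). The call was lost when Veh replicate 1 (adjusted p = 0.115), Veh replicate 2 (0.0671), KLA replicate 1 (0.0975) or KLA replicate 2 (0.106) was left out, and under DESeq2 (0.513 with its own size factors, 0.485 with total tags in peaks). Without the promoter peak, the 2 distal Ccl2 peaks gave a log2 fold change of -0.32 (adjusted p = 0.445). For RGFP966 + KLA against KLA, edgeR called 0 of 4 genes, against 0.318% (21) of all genes. None of the 4 had an unadjusted p under 0.05 by edgeR. DESeq2 called 0 of the 4 and 0 of all genes, so its result says nothing about these 4. For RGFP966 + KLA against Veh, 2 of 4 were called, against 9.29% (613) of all genes. Ccl2 fell by 0.80 ± 0.19 (SE) on the log2 scale (adjusted p = 0.00331), and Cxcl2, whose sum is its 1 peak, rose by 1.54 (adjusted p = 0.0271), with the same dependence on the IDR set. The Ccl2 call was lost without Veh replicate 1 (adjusted p = 0.0549) or RGFP966 + KLA replicate 2 (0.0742), under DESeq2 (0.286 and 0.273), and over the 2 distal peaks alone (log2 fold change -0.42, adjusted p = 0.214). The Cxcl2 call was lost without Veh replicate 1 (adjusted p = 0.132), Veh replicate 2 (0.147) or RGFP966 + KLA replicate 2 (0.226) and under DESeq2 with its own size factors (0.54). Scaling to all tags of each library in place of tags in peaks left 0 of 4 genes called in all 3 comparisons.

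Summed over all 6 WT peaks, the chemokine loci took 68.2 and 71.8 of every 100000 tags in peaks at Veh, 60.4 and 57.4 with KLA and 51.8 and 53.0 with RGFP966 + KLA. Ccl2 supplied 50.4 ± 1.16 (SD, n = 2) of the 70.0 at Veh. Per 1000000 of all tags these were 14.1 and 10.1 at Veh, 10.6 and 8.26 with KLA and 9.54 and 9.53 with RGFP966 + KLA. Veh and KLA overlapped on that scale. The median log2 fold change of the 6 peaks was 0.04 for KLA against Veh, beside 0.02 over all peaks. It was -0.24 for RGFP966 + KLA against KLA, beside 0.03, and -0.30 for RGFP966 + KLA against Veh, beside 0.04. By edgeR, 2 of the 6 had an unadjusted p under 0.05 for KLA against Veh, beside 19.5% of all peaks. For RGFP966 + KLA against Veh, 3 of the 6 did, beside 25.4%. Both counts include the Cxcl2 promoter peak, so they are not independent of how the peaks were chosen. The genes outside the chemokine lists whose summed tags ran most like the chemokine sum were 2310001H17Rik, Nptn, Axin1, Slc46a3 and Gpbp1, with Pearson's r of 0.993, 0.991, 0.984, 0.98 and 0.978 over the 6 WT libraries. They were picked as the 5 highest of 3308 genes, and the libraries share their depth and conditions, so these values are a description.

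Of 51 other chemokine ligands and receptors, 11 had a peak within 100 kb in the WT table. None was called for KLA against Veh by edgeR, though 2 had an unadjusted p under 0.05 (Ccl11 and Ccr7, named after their values were seen), against 18.6% of all genes, and DESeq2 gave Ccl11 an adjusted p of 0.891 or higher. None was called for RGFP966 + KLA against KLA, where 3 had an unadjusted p under 0.05 (Ccl1, Ccl24 and Cx3cr1, named likewise), against 13.9% of all genes. For RGFP966 + KLA against Veh, 5 of 11 had an unadjusted p under 0.05 by edgeR, against 24.2% of all genes. Of the 11, 1 was called as higher and 0 as lower, a share near the 9.29% of all genes called. It was Ccl11, an eosinophil attractant downstream of Ccl7 on chromosome 11. Its single peak, 31674 bp from the Ccl2 TSS, held 5 and 5 tags at Veh, 18 and 8 with KLA and 20 and 21 with RGFP966 + KLA, and it came from the RGFP966 + KLA IDR set alone. The log2 fold change was 1.35 ± 0.46 (SE), with an adjusted p of 0.0454 by edgeR. By edgeR, the adjusted p was above 0.05 with TMM factors (0.052), loess offsets (0.0552), all-tag scaling (0.109), a filter of 16 tags (0.0503) and peaks within 20 kb (0.0548). Under DESeq2 with its own size factors it was 0.586. The call was also lost when any Veh or RGFP966 + KLA library was left out, with log2 fold changes of 1.29 to 1.42.

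In NCoR f/f BMDMs at Veh, the chemokine peaks were measured at greater depth, in 2 libraries and with no treated group to compare. The authors built this table from 4 IDR sets, at Veh and KLA in NCoR f/f and in NCoR-deficient (NKO) BMDMs, and it holds tags of the Veh libraries of NCoR f/f BMDMs here. Of the 14 chemokine peaks, 4 were in the NCoR f/f Veh set and 12 in the NCoR f/f KLA set, while over all 24867 peaks 62.2% were in the first and 75.1% in the second. The 4 peaks of the Veh set were at the Ccl2 promoter, at 28421 and 30656 bp upstream of Ccl2 and at 9034 bp downstream of Ccl3. The KLA set of NCoR f/f alone held 5 of the 14 peaks, while it alone held 17.5% of all peaks. These were at the promoters of Ccl4 and Cxcl10, upstream of Cxcl1, 6258 bp upstream of Cxcl2 and 18980 bp upstream of Ccl2. The KLA set of NKO alone held 2 of the 14, at 12869 and 11655 bp upstream of Ccl2, while it alone held 7.08% of all peaks. These sets say where a peak was reproducible, and no tags of the KLA or NKO libraries were analysed here.

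The level of open chromatin at Veh, per 100000 tags in peaks and per kb of peak, ran from 3.66 to 23.1 over the 14 peaks. The Ccl2 promoter peak (43 and 42 tags) was the highest at 23.1 ± 5.45 (SD, n = 2), above 92.7% of all peaks of the table. The next 4 peaks lay close together, with gaps within the counting error of their 11 to 36 tags. They were at 6258 bp upstream of Cxcl2 (11 and 16 tags, 15.2 ± 0.65), downstream of Ccl3 (21 and 29 tags, 14.7 ± 0.091) and at 28421 bp (26 and 36 tags, 14.1 ± 0.113) and 30656 bp (15 and 14 tags, 13.998 ± 3.75) upstream of Ccl2. The Cxcl2 promoter (10 and 14 tags) stood at 10.3 ± 0.164, with the peak upstream of Cxcl16 (13 and 14 tags, 9.66 ± 1.63) and the peak 11655 bp upstream of Ccl2 (12 and 10 tags, 9.57 ± 3.29) beside it. The Cxcl1 peak (9 and 12 tags) was at 8.52 ± 0.159 and the intronic peak upstream of Cxcl10 (10 and 10 tags) at 7.93 ± 1.75. At the bottom were the promoters of Ccl4 (3 and 4 tags, 3.94 ± 0.0733) and Cxcl10 (3 and 5 tags, 3.66 ± 0.508), above 4.62% and 3.83% of the table's peaks. Between these came the peaks 12869 bp (6 and 6 tags, 6.55 ± 1.44) and 18980 bp (5 and 7 tags, 5.24 ± 0.0832) upstream of Ccl2. Neighbours in this order could not be told apart at this depth.

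**Figure D4:**
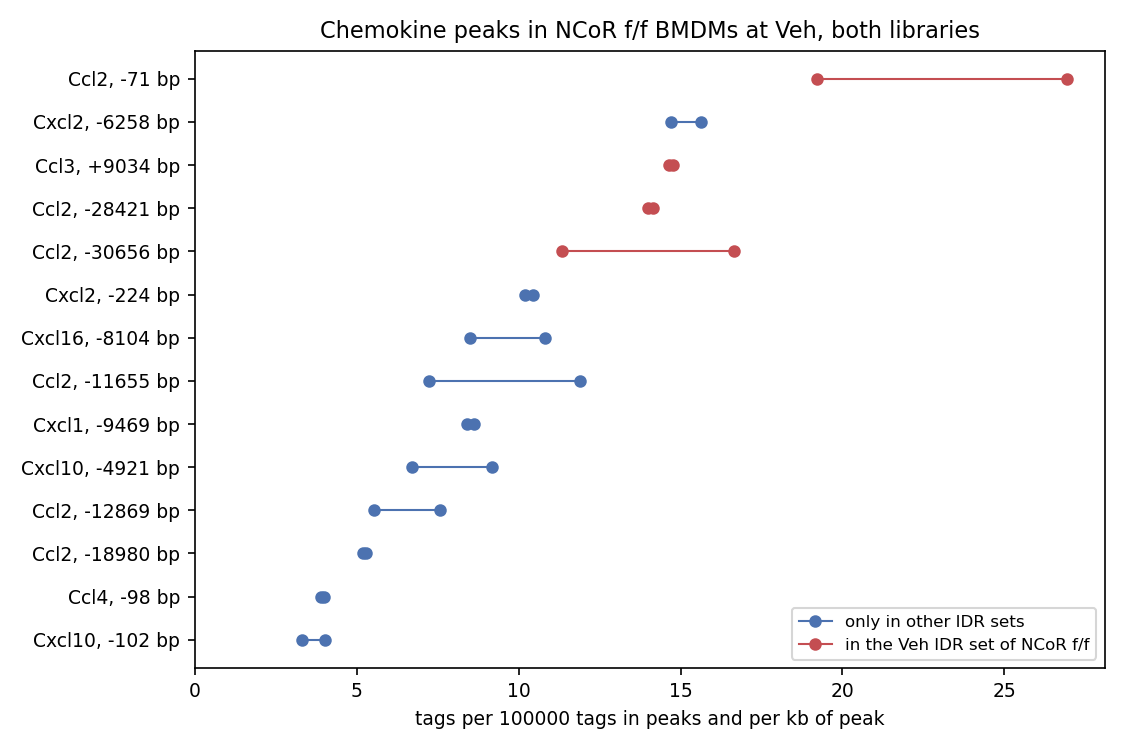
Tags per 100000 tags in peaks and per kb of peak (x axis) at the 14 chemokine peaks of NCoR f/f BMDMs at Veh, ordered by mean. Joined points are the 2 libraries, red for the 4 peaks of the NCoR f/f Veh IDR set and blue for peaks found only in other sets. The Ccl2 promoter (-71 bp) lies to the right of the other 13, and the Ccl4 and Cxcl10 promoters lie at the left.

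Peaks and depth differ between the 2 tables, so their levels are given side by side with no test. At Veh, the Ccl2 promoter peak was the most open chemokine peak in both, at 78.9 ± 0.22 (SD, n = 2) tags per 100000 and per kb in WT BMDMs, above 96.6% of that table's peaks. The Cxcl2 promoter at Veh was at 14.9 ± 1.69 (SD, n = 2) in WT BMDMs, above 13.3% of peaks, and in NCoR f/f BMDMs it was above 44.7%. Summed over its peaks, Ccl2 took 25.6 ± 4.37 (SD, n = 2) of the 46.6 ± 5.13 (SD, n = 2) tags per 100000 that all chemokine peaks took in NCoR f/f BMDMs. Of the other list, 20 of 51 genes had 53 peaks in the NCoR f/f table.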

How the data were processed

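ATAC-seq of 8 libraries was analysed, grouped by the labels. By the methods, the authors aligned reads with Bowtie2 (mm10) and found peaks with HOMER. For each condition they took the peaks that an IDR filter kept in the best-correlated pair of samples, then merged conditions. The deposited values are raw tag counts per merged peak, at most 3 tags per position, with no adjustment for depth. TSS distance, gene and IDR sets are the authors'. No tool versions are given in the sources used here. The WT libraries held 116733 to 202523 tags in peaks and the NCoR f/f libraries 372367 and 509741.

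All 9698 WT peaks, and tags summed over peaks within 100 kb of each gene, were tested with edgeR 4.0.16 (R 4.3.3; glmQLFit, glmQLFTest), with 6 libraries in 1 model and library sizes set to total tags in peaks. A feature needed 4 or more tags in some library, and all passed. A peak was called when its Benjamini-Hochberg adjusted p was under 0.05 and its change over 2-fold, a sum when its adjusted p was under 0.05. The SE is the log2 fold change over the square root of F, and 95% intervals are 1.96 SE either way. The scripts were first run on simulated counts with known changes. Alternatives were TMM, all-tag and loess scaling, DESeq2 1.42.0, tag filters, the 4 compared libraries, a replicate block, left-out libraries, 1.5-fold, 20 kb and distal peaks. Promoter means within 2 kb of the TSS. Gene positions are from GENCODE vM21, and motifs were counted as consensus strings in 300 bases at each peak centre. The rule for names took every called chemokine peak and, per gene, the peak nearest the TSS and the one with the smallest p for KLA against Veh. The remaining chemokine peaks, 2 of them at Ccl2 in the WT table, were added after their values were seen, so that all are described. The sequence at Ccl2 is from the WT peak nearest the TSS among those read. From the other list, the rule took genes with a called sum. The members and lists were chosen with earlier results of these data known.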

Additional observations from a re-analysis of the deposited data

How the results depend on the processing

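Of 285 recomputed log2 fold changes of the chemokine peaks, 263 kept their direction and their side of the threshold, 12 lost a call, 1 gained one and 9 changed sign. This total is no measure of how stable the calls are. All 12 losses fell on the called values, each recomputed 16 times, and most other values kept their side by staying uncalled. The settings with no filter and with 1.5-fold repeat the main fold changes. DESeq2 with either scaling called 0 peaks and 0 sums of the chemokine genes in any comparison, and with total-tags size factors gave the Cxcl2 sum no adjusted p for RGFP966 + KLA against Veh. Over all features, DESeq2 called 0 or 1 peak and 0 to 24 sums per comparison. The Ccl2 promoter peak passed with all other whole-data settings. Loess offsets left 1 peak called for RGFP966 + KLA against Veh. Scaling to all tags, and distal peaks alone, each left 0 genes called in any comparison. With libraries left out, 0 to 1 peaks were called for KLA against Veh and 1 to 2 for RGFP966 + KLA against Veh, and 0 to 1 and 0 to 2 genes. The cause was not tested. With a library left out, the lone sample of its group is assumed to vary like the others.

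Signs changed only for values that were not called. The difference 30620 bp upstream of Ccl2, RGFP966 + KLA against Veh, was 0.023 with all tags, 0.040 with loess offsets and -0.24 to 0.14 with libraries left out. The Ccl2 sum, RGFP966 + KLA against KLA, was 0.14 with all tags, 0.070 within 20 kb and -0.16 to 0.080 with libraries left out. Left-out libraries also gave -0.15 to 1.29 for the Cxcl2 promoter and -0.20 to 0.63 for the Ccl2 promoter in this comparison, -0.087 to 0.59 for Ccl3 in KLA against Veh, and -0.62 to 0.14 for Cxcl1 in RGFP966 + KLA against Veh.

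With the replicate number as a block, 1, 0 and 2 peaks and 1, 0 and 2 genes were called, as without it, while the count over all peaks for RGFP966 + KLA against KLA rose from 33 to 56. Same-numbered libraries did not deviate together (r = 0.016 to 0.023). Loess offsets turned the split of all KLA-called peaks from 320 higher and 168 lower to 225 and 264. The summed NCoR f/f level was 36.2 tags per 100000 within 20 kb, since fewer peaks count. Depth limits calls to large changes, with a median of 10 to 17 tags per WT peak.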
